A study of Mus musculus with 15 samples.

Results

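The 9 genes described here are interferon-stimulated genes, most of them at a low level in these libraries: Ifit1, Ifit2, Ifit3, Isg15, Irf7, Rsad2, Usp18, Bst2 and Ifi27l2a. They were taken as a list by gene symbol, and all 9 were found among the 39179 gene identifiers of the 15 libraries. The libraries hold RNA from the quadriceps muscle of C57BL/6 mice. They fall into 4 groups, wild-type mice at 3 mo of age (n = 4) and at 19 mo (n = 3), and mice of both ages that were homozygous for the V338Y exchange in the mitochondrial ribosomal protein Mrps5 (n = 4 at each age). The V338Y exchange makes the mitochondrial ribosome misread its messages, and the mutation is carried in every cell of the animal. Each library is 1 mouse, and nothing in the labels ties mice of the same number to a litter or a day, so the p-values measure the spread between these mice.

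Interferons are secreted proteins that warn cells of viral nucleic acid. Type I interferons bind a receptor of the chains Ifnar1 and Ifnar2, whose kinases set off a signal that reaches the nucleus through Stat2 and Irf9, as parts of a complex that binds interferon-stimulated response elements in the promoters of many genes. Among the genes described here Irf7 is the transcription factor that amplifies the response, Isg15 and Usp18 are a ubiquitin-like modifier and the protease that removes it, and most of the remaining 6 are effectors that hold back viral RNA, particles or budding. RNA from whole muscle also carries the transcripts of blood vessels, fat and immune cells, and in bulk RNA fewer cells of a type and less RNA per cell cannot be told apart.

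The promoters are shown because the response element is the sequence through which the complex of Stat2 and Irf9 acts on such genes. RefSeq promoters (GRCm38.p6, 250 bases before the transcript start) were at hand for 7 of the 9 genes, with 2 starts for Ifit2, and none was used for Usp18 or Ifi27l2a. The core of the element was searched as GAAANNGAAA on both strands, where N is any base, and it stood in the promoters of 5 genes, namely Ifit1, Ifit3, Isg15, Rsad2 and Bst2. Of all 32851 promoters of the same length, 978 held it, which is 2.98%. Below are the 160 bases before the start of each of the 5, read 5′ to 3′ on the strand of the gene, with every match in capitals.
Ifit1, chr19:34640729-34640888, plus strand: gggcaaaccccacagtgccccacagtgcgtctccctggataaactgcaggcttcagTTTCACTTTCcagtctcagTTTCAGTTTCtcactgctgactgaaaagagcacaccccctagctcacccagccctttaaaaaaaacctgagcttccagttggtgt
Ifit3, chr19:34583369-34583528, plus strand: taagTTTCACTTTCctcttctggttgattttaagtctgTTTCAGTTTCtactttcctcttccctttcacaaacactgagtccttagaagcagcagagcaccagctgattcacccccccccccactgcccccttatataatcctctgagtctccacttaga
Isg15, chr4:156200819-156200978, minus strand: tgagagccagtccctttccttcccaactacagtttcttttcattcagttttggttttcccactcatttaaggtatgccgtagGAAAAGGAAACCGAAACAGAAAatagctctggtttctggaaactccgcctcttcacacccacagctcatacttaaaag
Rsad2, chr12:26456453-26456612, minus strand: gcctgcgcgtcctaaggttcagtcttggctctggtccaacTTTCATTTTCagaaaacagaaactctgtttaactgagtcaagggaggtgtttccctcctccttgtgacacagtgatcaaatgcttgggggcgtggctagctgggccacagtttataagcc
Bst2, chr8:71537473-71537632, minus strand: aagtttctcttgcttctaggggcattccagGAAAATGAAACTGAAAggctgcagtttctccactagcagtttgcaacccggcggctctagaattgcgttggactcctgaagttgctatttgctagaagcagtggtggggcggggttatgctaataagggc

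Ifit1 and Ifit3 each carried 2 separate copies of the core in the reverse orientation, between 104 and 76 bases and between 156 and 113 bases before the start. The matches of Isg15 overlapped, with 3 of them in a single run from 78 to 57 bases before the start, and so did the 2 of Bst2. Rsad2 held 1 copy. The letters were not in the windows of Irf7 and Ifit2, which says nothing of these genes beyond that window. A match is a description of the letters and was not measured as a binding site.

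The 15 libraries held 8250653 to 18968132 counts, and 0 of the 105 pairs of files were identical. Mrps5, the mutated gene, was between 14.9 and 27.5 TMM CPM in every mouse, where TMM CPM stands for counts scaled to a common library size by the trimmed mean of M values, and its level cannot check a point mutation. Levels of Acta1, Ckm and other genes of the muscle fibre summed to more than any other marker list in all 4 groups. The sex-linked genes split the libraries by age. Xist, the RNA of the inactive X chromosome, was at 506 to 630 TMM CPM in the 19 mo mice and at no more than 0.57 in the 3 mo mice, whereas the Y-linked Ddx3y was at 163 to 202 in the 3 mo mice and at no more than 0.083 in the 19 mo mice, although the methods of the study describe the young groups as female. In each comparison between the ages below, age and sex cannot be told apart.

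Most of the 9 genes were weakly transcribed. The deposited counts of Isg15 lay between 2 and 34 per library and those of Irf7 between 19 and 149, and only Ifi27l2a had at least 225 in every library. All 9 passed the filter on low counts in every comparison, but Isg15 did so at 19 mo through the V338Y mice alone, since no wild-type mouse of that age had more than 8 counts, and in the age comparisons through the 19 mo V338Y mice and the 3 mo wild-type mice alone. Per kilobase of exon, Ifi27l2a had the highest mean level in every group, from 40.8 ± 1.28 (SD, n = 3) in 19 mo wild-type mice to 172 ± 75.9 (SD, n = 4) in 3 mo wild-type mice. Bst2 came next, at 4.89 to 7.56, and Ifit3 after it, at 1.73 to 3.02, which is a gap from Bst2 wider than the SD of either in each group. The other 6 lay between 0.471 and 2.61 TMM CPM per kilobase, and neighbours in the order were no further apart than the larger of their SDs, except Ifit2 above the next gene in both wild-type groups (1.65 against 1.02 at 3 mo, 1.89 against 1.16 at 19 mo) and Ifit1 above Usp18 in 19 mo wild-type mice (1.15 against 0.703). Isg15 moved from the ninth place in 19 mo wild-type mice to the fifth in 3 mo wild-type mice.

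**Figure D1:**
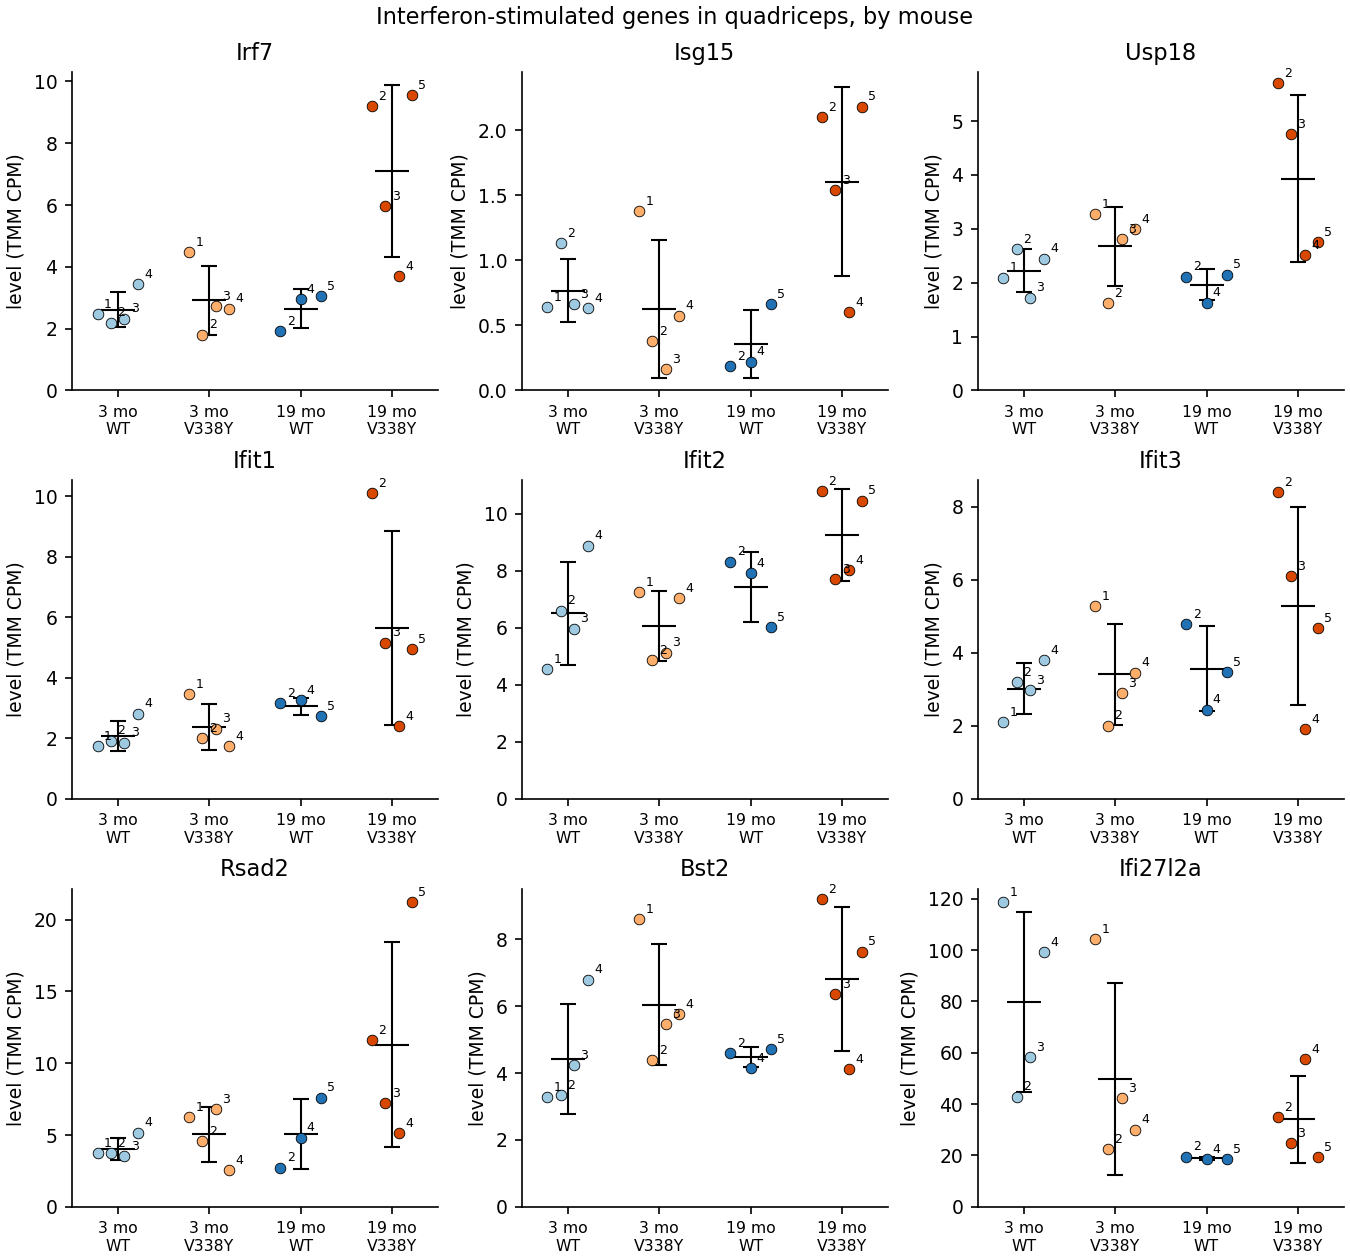
Level in TMM CPM (y axis, from 0) of each gene in each mouse, with the 4 groups on the x axis, points numbered by mouse, and the line and bars giving the mean ± SD. Irf7 in the 4 V338Y mice of 19 mo lies between 3.71 and 9.56, above all 3 wild-type mice of that age, whereas Ifi27l2a is lowest in the 19 mo wild-type mice, at 18.5 to 19.6.

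The amplifier of the response, Irf7 (ENSMUSG00000025498, chr7:141262706-141266481, minus strand, GRCm38), was measured at 1.93, 2.96 and 3.06 TMM CPM in the wild-type mice of 19 mo (mice 2, 4 and 5). In the V338Y mice of that age (mice 2, 3, 4 and 5) it was measured at 9.20, 5.96, 3.71 and 9.56, so every mutant mouse stood above every wild-type mouse. The fitted log2 fold change was 1.46 (SE 0.35), with an unadjusted p of 0.0028 and an adjusted p of 0.483 by edgeR's quasi-likelihood test. At 3 mo the wild-type mice 1 to 4 had 2.46, 2.20, 2.32 and 3.44 TMM CPM and the V338Y mice 4.48, 1.81, 2.73 and 2.65, where the groups overlapped and the log2 fold change was 0.21 (SE 0.28, adjusted p = 0.854 by edgeR). Irf7 rose with age in V338Y mice, by 1.27 on the log2 scale (SE 0.34, adjusted p = 0.0127 by edgeR). In wild-type mice the log2 fold change with age was 0.02 (SE 0.25, adjusted p = 0.946 by edgeR).

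Isg15 (ENSMUSG00000035692, chr4:156199424-156200818, minus strand), the ubiquitin-like protein that is joined to other proteins or secreted, had 0.186, 0.222 and 0.661 TMM CPM in the 19 mo wild-type mice, from 3 to 8 counts each. The 19 mo V338Y mice had 2.10, 1.54, 0.601 and 2.18 TMM CPM. Mouse 4 of the mutants lay within the wild-type range and the other 3 above it. The log2 fold change of 2.24 (SE 0.58) was the largest of the 9 genes at this age, in a gene that passed the filter through the mutants alone, with an unadjusted p of 0.0045 and an adjusted p of 0.505 by edgeR. At 3 mo Isg15 was at 0.638, 1.13, 0.663 and 0.634 TMM CPM in wild-type mice and at 1.38, 0.381, 0.165 and 0.576 in V338Y mice. These groups overlapped, and mutant mouse 1 alone stood above all wild-type mice. With age the log2 fold change was -1.16 in wild-type mice (adjusted p = 0.0948 by edgeR) and 1.29 in V338Y mice (adjusted p = 0.0885 by edgeR).

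Usp18 (ENSMUSG00000030107, chr6:121245906-121270917, plus strand), which cleaves Isg15 from its targets and also dampens signalling at the interferon receptor, was measured at 2.11, 1.63 and 2.15 TMM CPM in 19 mo wild-type mice and at 5.70, 4.76, 2.51 and 2.76 in 19 mo V338Y mice. The groups did not overlap, and the log2 fold change was 1.02 (SE 0.33, unadjusted p = 0.0141, adjusted p = 0.525 by edgeR). In the 3 mo mice the values were 2.10, 2.62, 1.72 and 2.45 in wild-type and 3.27, 1.62, 2.81 and 2.99 in V338Y mice, which overlapped. Neither change with age passed the test, at -0.17 in wild-type and 0.55 in V338Y mice on the log2 scale.

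The Ifit genes encode tetratricopeptide proteins that bind foreign RNA or block its translation, and the 3 of them studied here lie within the same stretch of chromosome 19 (GRCm38, plus strand), Ifit2 (ENSMUSG00000045932) at chr19:34550694-34576419, Ifit3 (ENSMUSG00000074896) at chr19:34583531-34588731 and Ifit1 (ENSMUSG00000034459) at chr19:34640871-34650009. Ifit1 was at 3.17, 3.26 and 2.73 TMM CPM in 19 mo wild-type mice and at 10.1, 5.16, 2.41 and 4.94 in 19 mo V338Y mice. Of the 4 mutants 3 were above all wild-type mice and mouse 4 was below them, with a log2 fold change of 0.91 (SE 0.41, adjusted p = 0.562 by edgeR). At 3 mo Ifit1 was at 1.73, 1.91, 1.86 and 2.81 TMM CPM in wild-type and at 3.45, 2.0, 2.31 and 1.73 in V338Y mice. From 3 to 19 mo it rose in V338Y mice by 1.23 on the log2 scale (SE 0.39, adjusted p = 0.0282 by edgeR), and the log2 fold change in wild-type mice was 0.56 (SE 0.22, adjusted p = 0.0747 by edgeR).

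Ifit2 was at 8.32, 7.92 and 6.03 TMM CPM in 19 mo wild-type mice and at 10.8, 7.70, 8.02 and 10.5 in 19 mo V338Y mice, which overlapped. In 3 mo mice it was at 4.56, 6.59, 5.97 and 8.88 in wild-type and at 7.24, 4.86, 5.13 and 7.03 in V338Y mice. Every V338Y mouse of 19 mo stood above every V338Y mouse of 3 mo, as was so for 20.3% of all genes, and the rise with age was 0.62 on the log2 scale (SE 0.18, adjusted p = 0.0192 by edgeR).

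Ifit3 was at 4.78, 2.44 and 3.47 TMM CPM in 19 mo wild-type and at 8.4, 6.10, 1.90 and 4.68 in 19 mo V338Y mice. At 3 mo the values were 2.10, 3.19, 2.98 and 3.81 in wild-type and 5.28, 2.0, 2.89 and 3.46 in V338Y mice. All 4 groups overlapped, and no comparison of Ifit3 passed the test (adjusted p from 0.236 to 0.868 by edgeR). The near-identical gene Ifit3b shares reads with Ifit3, and the estimated counts divide such reads between them, so their separate levels are uncertain. In the 19 mo mice Ifit3b had a log2 fold change of 0.05 (SE 0.42) in V338Y against wild type.

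Rsad2 (ENSMUSG00000020641, chr12:26442746-26456452, minus strand) encodes viperin, the enzyme that makes a chain-terminating nucleotide against viral polymerases. It was measured at 2.73, 4.81 and 7.60 TMM CPM in 19 mo wild-type mice and at 11.6, 7.23, 5.11 and 21.2 in 19 mo V338Y mice. The groups overlapped, with mutant mouse 5 furthest out, and the log2 fold change was 1.21 (SE 0.52, unadjusted p = 0.0445, adjusted p = 0.557 by edgeR). The 3 mo values were 3.74, 3.76, 3.51 and 5.16 in wild-type and 6.26, 4.57, 6.78 and 2.53 in V338Y mice. Rsad2 rose with age in V338Y mice by 1.16 on the log2 scale (SE 0.43, adjusted p = 0.0481 by edgeR), a call that was lost when any 1 of 6 of the 8 mice was left out and with the size factors of RLE scaling.

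Bst2 (ENSMUSG00000046718, chr8:71534255-71537456, minus strand), or tetherin, which holds budding virus at the cell surface, was at 4.60, 4.14 and 4.71 TMM CPM in 19 mo wild-type mice. The 19 mo V338Y mice had 9.20, 6.36, 4.11 and 7.63, so 3 mutants were above all wild-type mice and mouse 4 was below them (log2 fold change 0.63, SE 0.26, unadjusted p = 0.0366, adjusted p = 0.541 by edgeR). At 3 mo Bst2 was at 3.28, 3.33, 4.24 and 6.80 in wild-type and at 8.61, 4.38, 5.46 and 5.76 in V338Y mice. With age its log2 fold changes of 0.03 for wild type and 0.17 for V338Y did not pass the test.

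Ifi27l2a (ENSMUSG00000079017, chr12:103442167-103443680, minus strand), a small membrane protein of the interferon-inducible Ifi27 family, took another course. It was at 119, 42.9, 58.4 and 99.2 TMM CPM in 3 mo wild-type mice and at 19.6, 18.5 and 18.6 in 19 mo wild-type mice, which did not overlap, as was so for 43.4% of all genes in this comparison. The fall was 2.07 on the log2 scale in the fitted model, that is a log2 fold change of -2.07 (SE 0.32, adjusted p = 0.0017 by edgeR). V338Y mice had 104, 22.4, 42.2 and 30.1 at 3 mo and 34.8, 24.6, 57.5 and 19.4 at 19 mo, which overlapped (log2 fold change -0.54, SE 0.48, adjusted p = 0.378 by edgeR). Between the 19 mo groups the log2 fold change was 0.88 (SE 0.34, unadjusted p = 0.0319, adjusted p = 0.541 by edgeR), and here mouse 4, the lowest mutant for 7 of the 9 genes, was the highest.

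The summed level of 6 adipocyte markers (Adipoq, Plin1, Cidec, Fabp4, Lep and Cfd) was highest in the same mouse as Ifi27l2a in 3 of the 4 groups. These were mouse 1 of the 3 mo wild-type mice, with 1482 TMM CPM of the markers, mouse 1 of the 3 mo V338Y mice, with 765, and mouse 4 of the 19 mo V338Y mice, with 1289. Over the groups the sums ran from 378 to 1482 in 3 mo wild-type, 292 to 765 in 3 mo V338Y, 205 to 460 in 19 mo wild-type and 241 to 1289 in 19 mo V338Y mice, and all 6 markers were detected in each group. Each of the other 8 genes was highest in the mouse with the highest adipocyte sum in 1 or 2 of the 4 groups. With age in wild-type mice 2 of the 6 adipocyte markers passed the test, both lower, against 17.8% of all genes. The part of the adipocyte markers in the values of Ifi27l2a was not tested. The related gene Ifi27 had log2 fold changes of -0.75 (adjusted p = 0.191 by edgeR) with age in wild-type mice and 0.64 (unadjusted p = 0.0076, adjusted p = 0.520 by edgeR) between the genotypes at 19 mo.

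**Figure D2:**
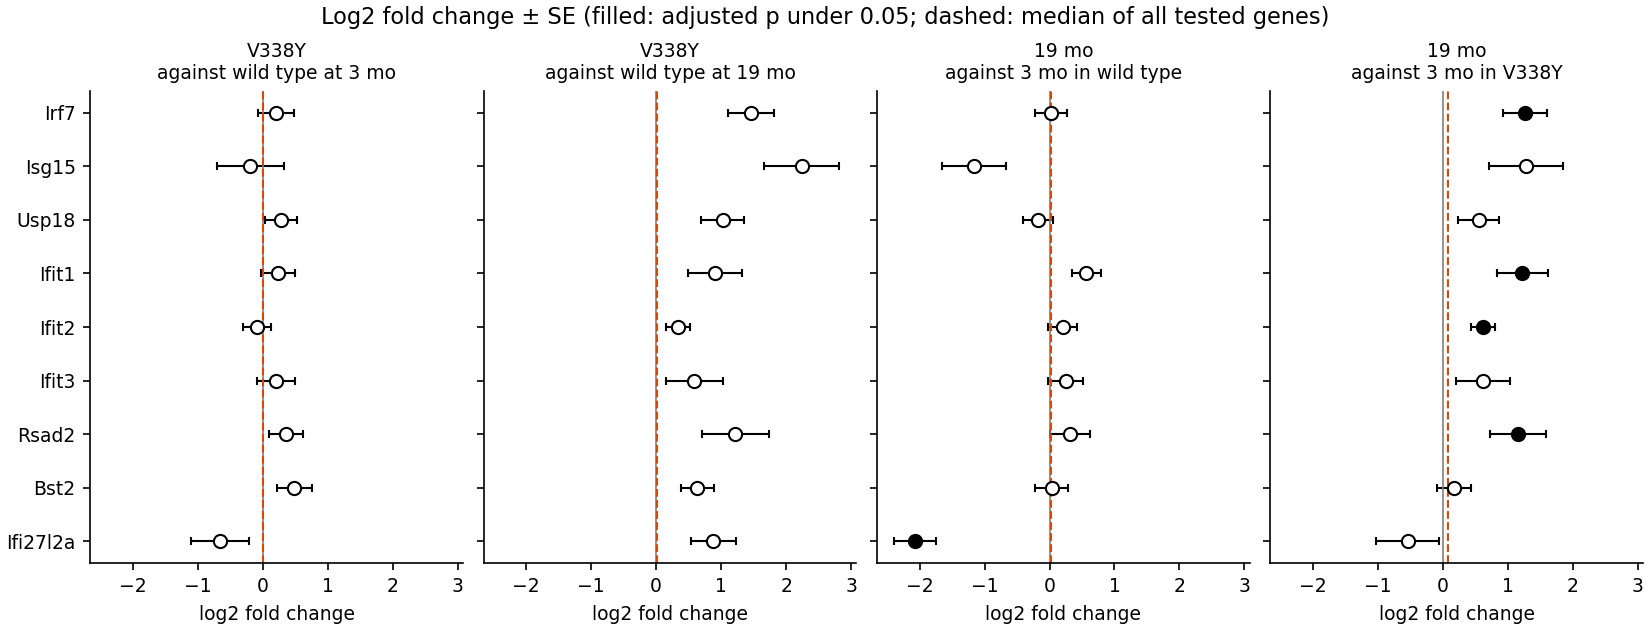
Log2 fold change (x axis) ± SE of each gene (y axis) in 4 comparisons, with filled points for an adjusted p under 0.05 by edgeR and the dashed line at the median of all tested genes. All 9 genes lie to the right of 0 between the genotypes at 19 mo without any filled point, and 4 are filled for age in V338Y mice.

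The comparison of the genotypes at 19 mo asks whether the mutation changed aged muscle. All 9 genes had a positive log2 fold change, with a median of 0.91 against 0.01 over all 13833 genes tested, of which 51.6% were positive. None of the 9 passed an adjusted p of 0.05 by edgeR, where 0.0434% of all genes did (6 genes). At an unadjusted p under 0.05, 6 of the 9 were higher in V338Y mice by edgeR, against 6.17% of all genes, and 2 of the 9, Irf7 and Usp18, had mutant values wholly above the wild-type values, against 4.48% of all genes. Isg15, one of the 6, passed the filter on low counts through the mutants alone and could enter the comparison only with high values there. Without it 5 of the other 8 had such a p, with a median over the 8 of 0.89. Leaving out 1 mouse at a time gave medians of 0.79 to 1.15 and 9 positive values each time. The number of the 9 at an unadjusted p under 0.05 dropped to 2 without wild-type mouse 4 and to 3 without wild-type mouse 2 or V338Y mouse 2. It dropped to 4 without V338Y mouse 5 or wild-type mouse 5. The share of all genes higher at that p was 3.82%, 3.63%, 4.5%, 6.37% and 5.1% in these fits, in the same order. DESeq2 called 62 of the 13833 genes and 1 of the 9, Irf7 (log2 fold change 1.45, adjusted p = 0.030). With a replicate block of mouse numbers edgeR called 110 genes in all and again 0 of the 9, with adjusted p-values of 0.0873 for Isg15 and 0.0966 for Irf7.

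Markers of leukocytes moved in the same direction at this age. The summed level of 6 pan-leukocyte markers, among them Ptprc, ran from 52.4 to 92.4 TMM CPM in 19 mo V338Y mice and from 40.03 to 47.4 in 19 mo wild-type mice. Of the 6, 5 were higher at an unadjusted p under 0.05 by edgeR, against 6.17% of all genes. Macrophage markers summed to 381 to 427 TMM CPM against 290 to 345 in wild-type mice, with 3 of 9 tested markers higher at that p, against the same 6.17%. Neutrophil markers such as S100a8 and Ltf summed to 638 in V338Y mouse 5 and to 17.2 to 39.8 in the other 3, against 11.99 to 13.04 in wild-type mice. Of 9 tested neutrophil markers 8 were higher at that p, against the same 6.17%. Only 5 of these markers could be tested between the ages in wild-type mice. Some of the 9 therefore passed the filter on low counts at 19 mo through the V338Y mice alone. Plasmacytoid dendritic cells, the main makers of type I interferon, were near the limit of detection, their markers summing to 0.994 to 4.31 TMM CPM over all mice, with Klk1 at 0 in both the 3 mo V338Y and the 19 mo wild-type mice and Ly6d at 0 in the former. The mouse with the highest leukocyte sum was also the mouse with the highest Irf7 in 4 of the 4 groups, the highest Isg15, Rsad2 and Bst2 in 3, the highest Ifit1, Ifit2, Ifit3 and Usp18 in 2 and the highest Ifi27l2a in 1. For the macrophage sum this was so in 4 groups for Bst2 and in 3 for Irf7, Ifit1, Ifit2, Ifit3 and Usp18. It was so in 2 for Isg15 and Rsad2 and in 1 for Ifi27l2a. For the neutrophil sum the number ran from 1 (Usp18) to 3 (Ifit2, Ifit3 and Irf7). Without V338Y mouse 5, which had the highest neutrophil sum, the log2 fold change of Irf7 was 1.28 (SE 0.35, unadjusted p = 0.0053, adjusted p = 0.453 by edgeR). The other 3 V338Y mice also lay above all wild-type mice of that age in the neutrophil sum. The part of leukocytes, macrophages and neutrophils in the levels of the 9 genes was not tested.

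**Figure D3:**
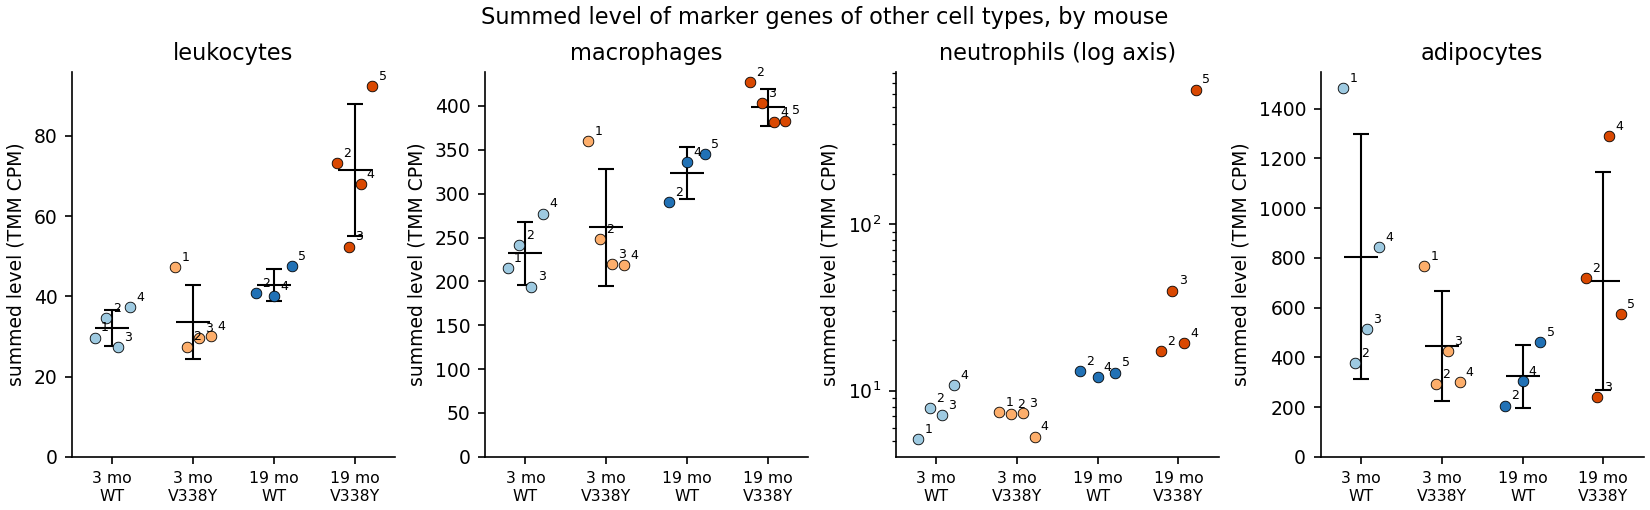
Summed level in TMM CPM (y axis) of the markers of 4 kinds of cell in each mouse of the 4 groups, points numbered by mouse, with the mean ± SD except for neutrophils, whose axis is logarithmic. Leukocyte and macrophage sums of all 19 mo V338Y mice lie above those of the other groups, and mouse 5 reaches 638 for neutrophils.

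At 3 mo the same comparison gave 6 of 9 positive log2 fold changes, against 49.3% of all genes, and a median of 0.21, against -0.0026 over all 13333. None of the 9 had an unadjusted p under 0.05 by edgeR, where 9.7% of all genes did, and none passed the adjusted test, where 0.075% did. DESeq2 likewise called 0 of the 9, and 66 of the 13333 genes. The genotype contrasts at 3 and 19 mo use different mice, and the sex-linked genes also split these mice by age. V338Y mouse 1 was the highest of its group for 8 of the 9 genes, and without it the median was -0.11. That mouse also had the highest leukocyte sum among the 3 mo mice, 47.3 TMM CPM against 27.3 to 37.2 in the other 7 mice.

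**Figure D4:**
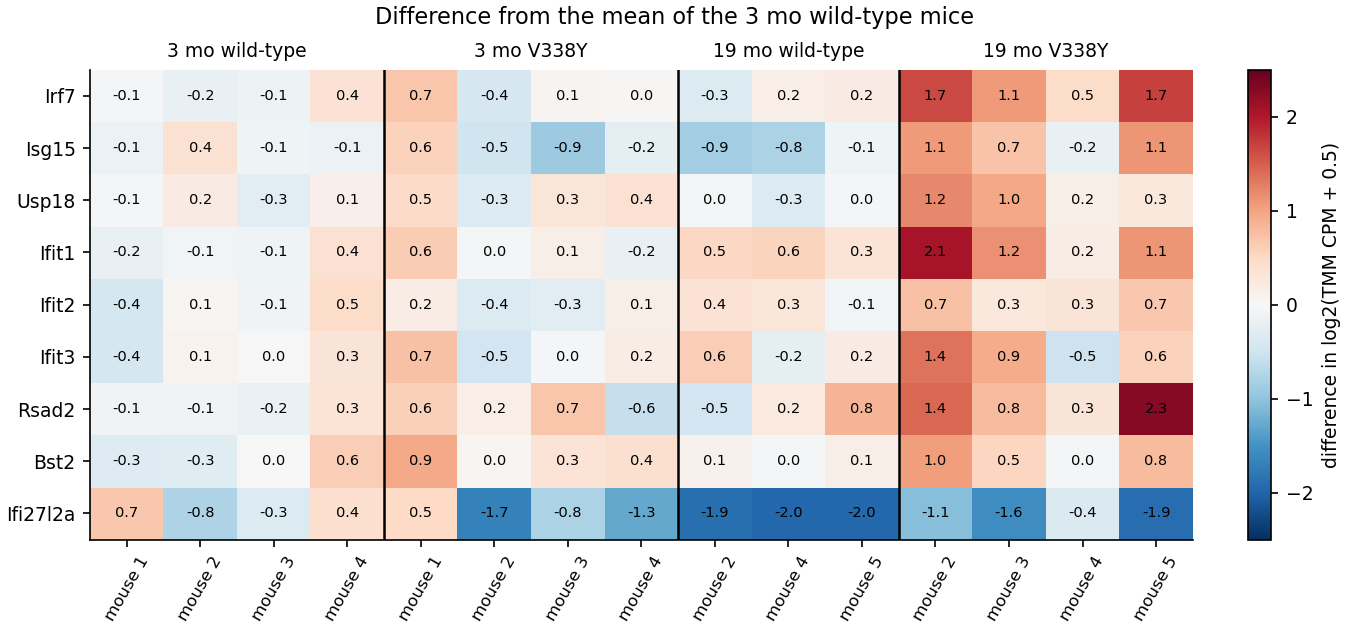
Difference of each gene (rows) in each mouse (columns) from the mean of the 3 mo wild-type mice, in log2(TMM CPM + 0.5), printed in each cell and coloured from blue (lower) to red (higher). In 19 mo V338Y mice 2, 3 and 5 all genes but Ifi27l2a are positive, mouse 4 is nearer to 0, and Ifi27l2a is blue in all 7 mice of 19 mo.

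The comparisons of the ages share their mice with the comparisons of the genotypes. In V338Y mice 4 of the 9 genes rose from 3 to 19 mo (Irf7, Ifit2, Ifit1 and Rsad2), against 24.4% of all 13868 genes, with a median over the 9 of 0.62 against 0.07 over all genes. In wild-type mice none of the 9 rose, where 18.3% of all 13657 genes did. Only Ifi27l2a fell, where 17.8% of all genes did. The median over the 9 was 0.03 there, against 0.02 over all genes. A further gene was called there without 19 mo wild-type mouse 5 (Isg15, log2 fold change -1.89, adjusted p = 0.0269 by edgeR) and without 3 mo wild-type mouse 4 (Ifit1, 0.73, adjusted p = 0.0335 by edgeR). With 1 V338Y mouse left out at a time, between 1 and 5 of the 9 were called. Only Irf7 was called in all 8 of these fits, and it alone was left without 19 mo mouse 2 or without 3 mo mouse 2 or 3, while Irf7 and Ifit2 were left without 3 mo mouse 4. The summed leukocyte markers lay between 27.4 and 47.3 TMM CPM in 3 mo V338Y mice and between 52.4 and 92.4 in 19 mo V338Y mice, and all 6 markers rose with age by edgeR. In wild-type mice these sums did not overlap between the ages either. The ratio of the means was 1.33 there and 2.13 in V338Y mice, and 1 of the 6 markers rose in wild-type mice. Macrophage and endothelial sums were also wholly higher at 19 mo, at ratios of 1.40 and 1.73 in wild-type and 1.52 and 1.83 in V338Y mice. The same held for neutrophils, at 1.63 and 26.2, and for B and plasma cells, at 2.91 and 3.55. Single mice weigh on these ratios of means. The neutrophil sum of 19 mo V338Y mice was 638 TMM CPM in mouse 5 and 17.2 to 39.8 in the others. For B and plasma cells the 19 mo wild-type sums were 27.3 in mouse 5 and 6.65 and 8.81 in the others. T and NK cell sums did not overlap in V338Y mice alone, at a ratio of 4.22. These sums were near the limit of detection, at 0.496 to 0.804 TMM CPM at 3 mo and 1.07 to 4.75 at 19 mo. Of the 9 T and NK cell markers 1 could be tested there. The sum of muscle fibre genes was wholly lower in V338Y mice, at a ratio of 0.671, and overlapped between the ages in wild-type mice. The part of these cells in the values of the age comparisons was not tested.

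The interaction of age and genotype over all 15 mice tested whether the genotypes differed otherwise at 19 mo than at 3 mo. The sex-linked genes split the mice by age, so the interaction cannot tell age from sex. The interaction was positive for all 9 genes, against 48.3% of all genes, with a median of 0.72 on the log2 scale against -0.01 over all 14128. None of the 9 passed the adjusted test by edgeR, and 0% of all genes did. At an unadjusted p under 0.05 by edgeR there were 3, all positive, against 5.06% of all genes. These were Isg15 at 2.42 (SE 0.85, unadjusted p = 0.0117), Irf7 at 1.24 (SE 0.47, unadjusted p = 0.0180) and Ifi27l2a at 1.51 (SE 0.66, unadjusted p = 0.0379), with adjusted p-values of 0.433, 0.466 and 0.498 by edgeR's model over all genes. Isg15 passed the filter through the 3 mo wild-type and 19 mo V338Y mice alone, and high values in both of these groups make the interaction positive. Among the other 8 genes 2 had such a p. DESeq2 called 26 genes in all and a replicate block of mouse numbers within age 117, with 0 of the 9 in both.

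Most of the 9 genes varied together among the mice of a group, and Ifi27l2a did so least. After each group's mean was subtracted, 34 of the 36 pairs correlated positively in log2(TMM CPM + 0.5) over the 15 mice, with a median Pearson's r of 0.52, and the 28 pairs without Ifi27l2a were all positive, from 0.06 to 0.85. Pairs with Ifi27l2a ran from -0.06 to 0.24. The points of a pair share their library, so this is a description. Among genes outside the 9, those that followed their mean closely on this scale included Rnf213, a large ubiquitin ligase (r = 0.95, Spearman's rho = 0.91), Oas1a, an oligoadenylate synthetase that activates RNase L (r = 0.91), Alpl, tissue-nonspecific alkaline phosphatase (r = 0.90), and Adamtsl2 (r = 0.89). Without subtraction of the group means they included Oas1a (r = 0.93), Slfn2 (r = 0.92), Alpl (r = 0.92) and Uba7 (r = 0.90).

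Ligands of the pathway were all but absent from the counts. Of 21 listed interferon genes 17 were found, 14 of them had no count in any of the 15 libraries, and Ifna2, Ifnz and Ifng had 2, 2 and 3 counts in all, so none could be tested. Of the 6 receptor chains 5 were tested. Ifnar2, a chain of the type I receptor, was at 6.51 ± 0.805 TMM CPM (SD, n = 3) in 19 mo wild-type and 8.84 ± 0.966 (SD, n = 4) in 19 mo V338Y mice, which did not overlap (log2 fold change 0.47, unadjusted p = 0.0160, adjusted p = 0.534 by edgeR). The other 4 had unadjusted p-values above 0.05 at that age. With age in V338Y mice, where 24.4% of all genes rose and 22.5% fell, Ifnar2 rose by 0.62 and Il10rb, a chain of the lambda receptor, by 0.53, while Ifngr2, a chain of the gamma receptor, fell by 0.57 (adjusted p = 0.0206, 0.0116 and 0.0077 by edgeR). None of the 5 passed the test with age in wild-type mice.

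Among 12 kinases and transcription factors 11 had a positive log2 fold change in the 19 mo mutants, 3 of them at an unadjusted p under 0.05, against 6.17% of all genes, and 0 after adjustment by edgeR. Stat2, a transcription factor of the type I response, was at 7.35 ± 0.609 (SD, n = 3) in wild-type and 13.2 ± 4.63 TMM CPM (SD, n = 4) in V338Y mice, without overlap (log2 fold change 0.87, unadjusted p = 0.0080, adjusted p = 0.525 by edgeR), and Irf9 had a log2 fold change of 0.40 (unadjusted p = 0.0214, adjusted p = 0.537 by edgeR). With age 5 of the 12 rose and 1 fell in V338Y mice, against 24.4% and 22.5% of all genes. Stat2 rose by 0.97 and Irf2, a repressor of interferon genes, by 1.06, whereas Jak2, the kinase of the gamma receptor, fell by 0.94 (adjusted p = 0.0105, 0.00017 and 0.00036 by edgeR). Irf2 and Jak2 also changed in wild-type mice, with log2 fold changes of 1.08 and -1.16 (adjusted p = 0.00069 and 0.00015 by edgeR). They were the only ones of the 12 to do so there, where 18.3% of all genes rose and 17.8% fell.

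All 4 enzymes of Isg15 conjugation had positive log2 fold changes at 19 mo, 3 of them at an unadjusted p under 0.05, against 6.17% of all genes. Uba7, which activates Isg15, was at 8.20 ± 0.511 TMM CPM (SD, n = 3) in wild-type and 15.9 ± 3.23 (SD, n = 4) in V338Y mice without overlap, a log2 fold change of 0.98 with an unadjusted p of 0.00035 and an adjusted p of 0.272 by edgeR. Herc6, the Isg15 ligase, had 0.64 (adjusted p = 0.550 by edgeR). With age Uba7, Herc6 and Trim25 rose in V338Y mice, where 24.4% of all genes did, by 0.88, 1.12 and 0.89 (adjusted p = 0.0023, 0.0048 and 0.0025 by edgeR), and Trim25 rose in wild-type mice, where 18.3% did, by 0.58 (adjusted p = 0.0050 by edgeR).

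A list of 41 further antiviral genes induced by interferon was described in the same way. Among them are 2 of the conjugation enzymes and Adar, which is also in the list of negative regulators below. All 39 that could be tested at 19 mo had a positive log2 fold change in V338Y against wild-type mice, with a median of 0.54, and 26 had an unadjusted p under 0.05, against the 6.17% of all genes given above, while 0 passed the adjusted test by edgeR. Of these 39, 5 (Oas1g, Oas3, Oasl1, Mx1 and Cxcl10) passed the filter on low counts through the V338Y mice alone, which favours a higher value there. Of the other 34, 34 were positive, with a median of 0.49, and 22 had such a p. Without V338Y mouse 2 or without wild-type mouse 2 the 26 became 11 (of 38 and 39 tested). They became 15 without wild-type mouse 5 and 16 without wild-type mouse 4. The share of all genes higher at that p fell as well, from 6.17% to 4.5%, 3.63%, 5.1% and 3.82% in the same order. Between 37 and 39 stayed positive when any mouse was left out. Oasl1, a relative of the oligoadenylate synthetases that restrains Irf7 translation and one of the 5, was at 0.288 ± 0.0578 TMM CPM (SD, n = 3) in wild-type and 1.30 ± 0.507 (SD, n = 4) in V338Y mice (log2 fold change 2.18, adjusted p = 0.395 by edgeR), and Xaf1, a proapoptotic protein, at 2.99 ± 0.559 (SD, n = 3) and 5.33 ± 0.584 (SD, n = 4) (log2 fold change 0.86, adjusted p = 0.467 by edgeR). At 3 mo 19 of the 33 tested were positive, with a median of 0.02. At an unadjusted p under 0.05 by edgeR 1 was higher, the RNA-activated kinase Eif2ak2, against 5.03% of all genes.

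With age in V338Y mice 21 of the 39 rose and 1 fell, against 24.4% and 22.5% of all genes. Among the 39, 8 passed the filter through the 19 mo mice alone, Oas3, Mx1 and Oasl1 among them, and of the other 31, 17 rose and 1 fell. The largest rises were those of Oas3, an oligoadenylate synthetase, by 2.41 (SE 0.68), the antiviral GTPase Mx1 by 2.0 (SE 0.51), Oasl1 by 1.68 (SE 0.48) and Oasl2 by 1.51 (SE 0.34) on the log2 scale, with adjusted p-values of 0.0165, 0.0099, 0.0163 and 0.0055 by edgeR. In wild-type mice 8 of 34 rose and 1 fell, against 18.3% and 17.8% of all genes. Among these Sp100, a protein of nuclear bodies, rose by 0.80 and Ifi203, of the DNA-binding family of Ifi204, by 0.75 (adjusted p = 0.0022 and 0.0285 by edgeR), whereas Ifi35 had a log2 fold change of -1.03 (adjusted p = 0.0011 by edgeR). With a replicate block of mouse numbers 0 of the 34 were called higher in wild-type mice and their median was 0.0096, against 0.20 without the block. That block rests on 2 pairs, and the numbers were not paired by correlated deviations there. The 8 rises in wild-type mice became 3 when 19 mo mouse 4 was left out, and 4 when 3 mo mouse 1, 2 or 3 was. Over all genes the rises fell as well, from 2505 to 1795 without 19 mo mouse 4. They fell to 2168, 2225 and 1913 without 3 mo mouse 1, 2 and 3.

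**Figure D5:**
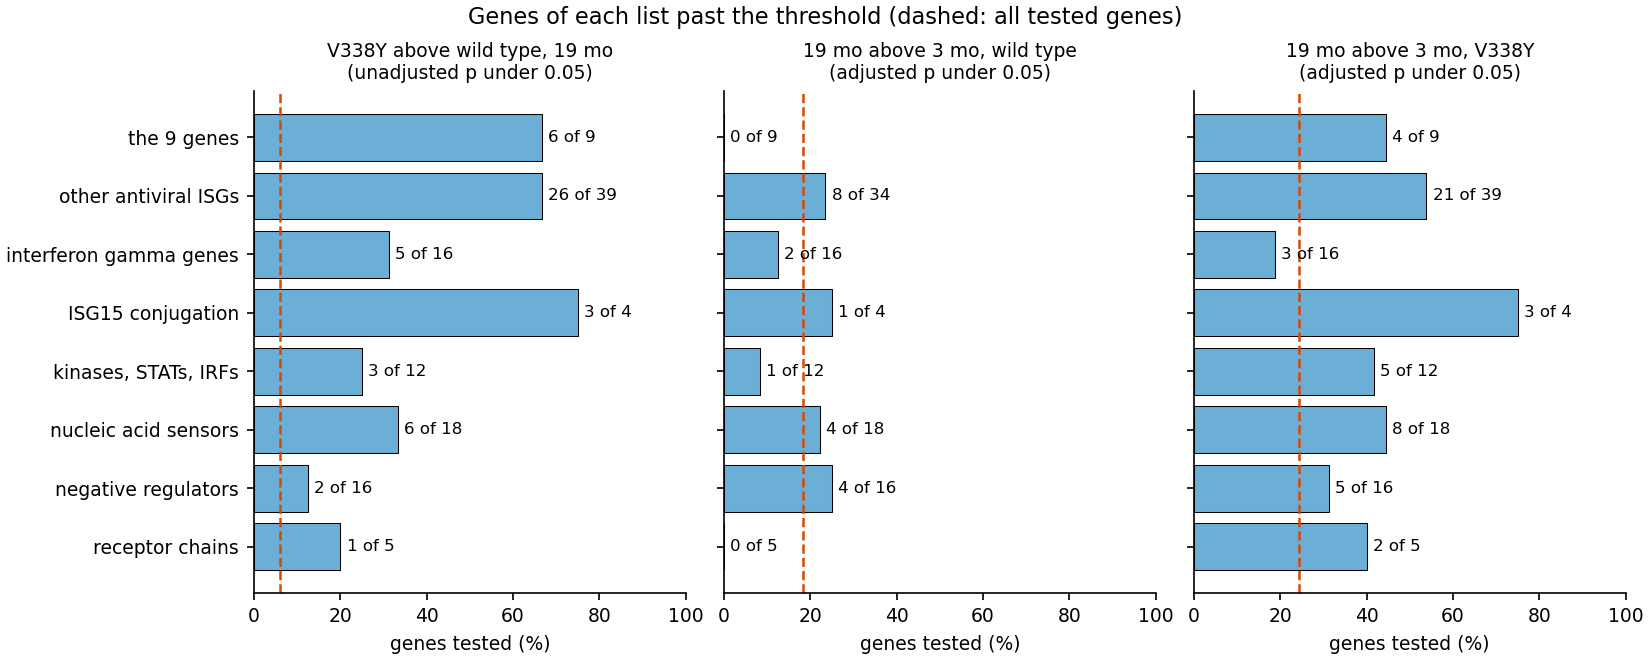
Share of the tested genes of each list (bars, in %, with the counts beside them) that were higher in V338Y mice at 19 mo at an unadjusted p under 0.05, or rose with age in wild-type or V338Y mice at an adjusted p under 0.05 by edgeR, with the share of all tested genes as a dashed line. At 19 mo 6 of 9, 26 of 39, 5 of 16 and 3 of 4 genes of the upper lists, from the top down, pass the unadjusted threshold, against 6.17% of all genes. Of these lists 1, 5, 1 and 0 genes passed the filter on low counts through the V338Y mice alone, which favours a higher value there. Among the others 5 of 8, 22 of 34, 5 of 15 and 3 of 4 pass the threshold. In the panel of age in V338Y mice, 8 of the 39 other antiviral genes passed the filter through the 19 mo mice alone. Herc6 and Trim25 are both in the list of other antiviral genes and among the conjugation enzymes. Adar is both in the list of other antiviral genes and among the negative regulators.

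The genes induced mainly by interferon gamma were described by a list of 22, of which 16 could be tested at each age. All 16 had positive log2 fold changes between the genotypes at 19 mo, with 5 at an unadjusted p under 0.05 against 6.17% of all genes, and at 3 mo 15 of 16 were positive, with 7 at that p against 5.03% of all genes higher, while 0 passed the adjusted test by edgeR at either age. The filter was passed through the V338Y mice alone by 1 of the 16 at 19 mo (Cxcl9) and by 2 at 3 mo (Tgtp1 and Gvin1). Of the other 14 at 3 mo 13 were positive and 6 had such a p. The guanylate-binding protein Gbp3 did not overlap between the genotypes at either age, with log2 fold changes of 0.71 at 3 mo (SE 0.19, adjusted p = 0.330 by edgeR) and 1.04 at 19 mo (SE 0.22, adjusted p = 0.418 by edgeR), and the GTPase Iigp1 had 0.77 at 3 mo (SE 0.17, adjusted p = 0.201 by edgeR). With age 3 of 16 rose in V338Y mice, against 24.4% of all genes, namely Nlrc5, the activator of MHC class I genes, by 1.51, Ifi47 by 1.5 and Ciita, the activator of MHC class II genes, by 1.10 (adjusted p = 0.0038, 0.0190 and 0.0143 by edgeR). In wild-type mice 2 of the 16 rose and 1 fell, against 18.3% and 17.8% of all genes. These were Gvin1, which rose by 1.28 and had passed the filter through the 19 mo mice alone, the GTPase Irgm2, which rose by 0.57, and Gbp7, with a log2 fold change of -1.04 (adjusted p = 0.0266, 0.0364 and 0.00058 by edgeR).

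Of 18 nucleic acid sensors and adaptors 16 had positive log2 fold changes between the genotypes at 19 mo, 6 of them at an unadjusted p under 0.05, against 6.17% of all genes, and 0 after adjustment by edgeR. Ddx58, or RIG-I, the sensor of viral RNA ends, was at 8.4 ± 0.83 TMM CPM (SD, n = 3) in wild-type and 11.8 ± 1.57 (SD, n = 4) in V338Y mice (log2 fold change 0.52, adjusted p = 0.511 by edgeR), and Tmem173, or STING, the adaptor of DNA sensing, had 0.56 (adjusted p = 0.541 by edgeR). With age 8 of the 18 rose in V338Y mice and 4 in wild-type mice, against 24.4% and 18.3% of all genes, and the endosomal RNA receptor Tlr7 was among both, at 0.95 and 1.07 (adjusted p = 0.0019 and 0.0143 by edgeR). The 16 negative regulators tested were split at 19 mo, with 9 positive and 2 higher at an unadjusted p under 0.05 against 6.17% of all genes, the nucleotide hydrolase Samhd1 (log2 fold change 0.31) and the RNA editor Adar (log2 fold change 0.46). With age 5 of them rose and 2 fell in V338Y mice, against 24.4% and 22.5% of all genes, and 4 rose and 1 fell in wild-type mice, against 18.3% and 17.8%. In V338Y mice 1 of the 16 passed the filter through those of 19 mo alone, and of the other 15, 4 rose and 2 fell. Nlrc3, a brake on STING signalling, which passed the filter in wild-type mice through those of 19 mo alone, was the largest rise in both genotypes. It rose by 1.59 in V338Y and by 1.71 in wild-type mice (adjusted p = 0.00072 and 0.0252 by edgeR).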

How the data were processed

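RNA-seq was performed on quadriceps muscle of 15 mice. According to the methods of the study, ribosome-depleted RNA was made into stranded libraries and genes were quantified with RSEM against Ensembl annotation; CASAVA 1.8, bcl2fastq 1.8.4 and STAR 2.4.2a stand in the submitters' processing notes. The authors deposited 1 table of estimated counts per mouse, given as whole numbers. Reads of close paralogs are divided by estimation in such counts. The build is named differently in the methods and the notes (GRCm38 in the latter), and gene coordinates and symbols here come from a GRCm38 annotation, which named 37607 of 39179 identifiers.

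The expected counts were rounded (no value changed), scaled by TMM and tested in edgeR 4.0.16 (R 4.3.3) by the quasi-likelihood test for each pair of groups, with genes that reached 10 counts in 50% or more of the mice of either group, and for the interaction of age and genotype over all 15 mice. P-values were adjusted by Benjamini-Hochberg over all genes tested and called at 0.05. The fits were tested on simulated data, in which all genes and mice had the same spread and genes with few counts were left out. That test therefore does not cover genes with few counts, such as Isg15, or a spread that differs between the groups. Alternatives were RLE and upper-quartile scaling, DESeq2 1.42.0, no filter, the mouse number as a replicate block, a fit of all 15 mice and leaving out each mouse. The same mouse number at 19 mo went with correlated deviations from the group means (3 pairs, r from 0.13 to 0.40, while other pairs ran from -0.41 to 0.47), and the block is therefore given beside that comparison; the labels give no source of the pairing. Depth limits the precision of genes with few counts, and CPM per kilobase used the exon length of the annotation.

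Named were all 9 genes; from each further list the genes with the largest change among those passing the adjusted test (up to 4 per comparison), or, where none passed, the 2 with the smallest p; and the 10 genes most correlated with the mean of the 9, of which 4 are given. The 9 genes and the lists were chosen with earlier results of these data known. Of the listed genes, symbols without a match in the annotation were left out. Results for some genes are not reported here.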

Additional observations from a re-analysis of the deposited data

Results flagged for a closer look

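In the 27 sets of 4 mice (9 genes in 3 groups of 4), 3 sets had a mouse set apart from the others by more than Dixon's 95% limit, where chance sets apart about 1 in 20. All 3 were 3 mo wild-type mice. Ifit1 was at 2.81 TMM CPM in mouse 4, against 1.73 to 1.91 in the other 3 mice. Rsad2 was at 5.16 TMM CPM in the same mouse, against 3.51 to 3.76. Isg15 was at 1.13 TMM CPM in mouse 2, against 0.634 to 0.663, from 16 counts against 7 to 10. Mouse 4 was the highest of its group for 6 of the 9 genes and also had the highest leukocyte marker sum of the group, 37.2 TMM CPM, whose part in these values was not tested.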

How the results depend on the processing

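Among the 9 genes, the number called differed from that in the report for DESeq2 at 19 mo (1, Irf7), for age in V338Y mice with RLE scaling (3, without Rsad2) and with the block (5, with Isg15), and when mice were left out, which gave 1 to 2 for age in wild-type mice and 1 to 5 for age in V338Y mice. Over all genes the number called between the genotypes was 66 by DESeq2 and 33 without the filter at 3 mo, and 62, 14 and, with the replicate block, 110 at 19 mo; the interaction called 26, 5 and 117, and age in wild-type mice called 2229 with the block, whose pairing there rests on 2 pairs. The cause was not tested. Leaving out 1 mouse gave 3 to 14 genes at 3 mo and 2 to 7 at 19 mo. Signs turned only for values near 0 or with an SE of similar size. Without the filter Irf7 had -0.0013 for age in wild-type mice, and the replicate block gave Irf7 -0.20, Rsad2 -0.26 and Bst2 -0.13 there and Ifi27l2a 0.27 for age in V338Y mice. Leaving out mice gave, at 3 mo, -0.022 to 0.41 for Ifit1, -0.22 to 0.088 for Ifit2, -0.12 to 0.38 for Ifit3, -1.09 to 0.13 for Isg15 and -0.11 to 0.37 for Irf7; for age in wild-type mice, -0.039 to 0.45 for Ifit3, -0.10 to 0.21 for Irf7, -0.11 to 0.62 for Rsad2 and -0.084 to 0.30 for Bst2; for age in V338Y mice, -0.92 to 0.11 for Ifi27l2a; and for the interaction, -0.12 to 0.38 for Bst2. Mice of the same number at 3 mo, or of different ages, were not paired by correlated deviations, and the block added 1 call among the 9 genes there, Isg15 as given above. Isg15, with 2 to 34 counts, is the least precise of the 9, and its group of 19 mo wild-type mice rests on 3 to 8 counts per mouse.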
